A study of Sus scrofa with 2 samples.

Results

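Capillary endothelial cells line the smallest vessels of muscle, between the arterioles and the venules. Here they are 1263 of the 25851 cell barcodes with 500 or more detected genes in single-cell RNA sequencing of longissimus dorsi, a back muscle, of pigs. Members were chosen by their raw counts of unique molecular identifiers (UMIs, each standing for 1 captured transcript). A barcode needed at least 1 UMI of the endothelial genes PECAM1 and CLDN5 together, and at least 3 of the capillary genes GPIHBP1, CA4 and BTNL9 together. It also needed fewer than 3 of the venous and lymphatic genes ACKR1 and MMRN1, none of the arterial genes GJA5 and DLL4, fewer than 3 of the mural genes RGS5 and MYH11, and fewer than 20 UMIs per 10000 of the stromal genes DCN and LUM. These 13 genes chose the barcodes, so their levels and every contrast of capillary with other barcodes are descriptions and not tests.

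One breed was Yorkshire and the other the Guangdong small-eared spotted pig (GDSS), with 1 library from each, in a series that concerns intramuscular fat. The labels give both libraries the same source and handling: cells from 1 g of muscle per piglet, lysis of red blood cells, magnetic removal of dead cells, the 10x Genomics v2 kit and a sample type named intramuscular vascular stem cells. Sex and the number of piglets per library are not given in the sources used here, and neither is what the titles mean by "P0". With 1 library per breed there is no replicate and no test, and breed cannot be told apart from the piglet, the preparation or the library. All intervals are at 95% and cover counting error alone.

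In skeletal muscle, triglyceride-rich lipoproteins are hydrolysed on the capillary surface by lipoprotein lipase, which muscle fibres make and the capillary protein GPIHBP1 carries across the endothelium and anchors there. The freed fatty acids enter through CD36 and are bound inside the endothelial cell by the carriers FABP4 and FABP5, and the factors PPARG, TCF15 and MEOX2 are known regulators of this uptake. The same cells hold the carbonic anhydrase CA4 on their surface, the water channel AQP1, caveolae and tight junctions, and they present antigen and respond to interferon.

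The GDSS library held 141 capillary barcodes, 1.22% (1.03 to 1.44%) of its 11533 barcodes with 500 or more genes, and the Yorkshire library 1122, 7.84% (7.4 to 8.29%) of 14318. Endothelial barcodes of every kind were 4.71% of GDSS and 14.4% of Yorkshire barcodes. Within the endothelial barcodes, the capillary share was 26.0% (22.3 to 29.9%) in GDSS and 54.4% (52.2 to 56.6%) in Yorkshire. The capillary class was thus the smaller part of the endothelium in the GDSS library and the larger part in the Yorkshire library, as measured by this rule. The rest of the endothelium also differed in make-up: 224 of 402 other endothelial barcodes in GDSS (55.7%) carried mural or stromal counts over the limits, against 220 of 940 in Yorkshire (23.4%). Cell isolation and the loss of cells before loading can set such shares as well as the tissue does, and their part was not tested.

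Capillary barcodes were shallow beside the rest of the endothelium. Their median was 2261 UMIs and 912 genes in GDSS and 2745.5 UMIs and 1086.5 genes in Yorkshire, with ranges of 700 to 16042 and 690 to 19338 UMIs. Other endothelial barcodes had medians of 5414 and 5487.5 UMIs and non-endothelial barcodes 2859 and 3000. The whole class summed to 442339 UMIs in GDSS and 3858472 in Yorkshire, so GDSS values carry the wider intervals. The median mitochondrial share was 2.82% and 2.03%. Of 47 barcode sequences found in both libraries, 1 GDSS and 2 Yorkshire barcodes were capillary and 0 were capillary in both.

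The 3 capillary genes of the rule were not used equally. GPIHBP1 had a UMI in 90.8% of GDSS and 92.4% of Yorkshire members and BTNL9, a butyrophilin-like surface protein, in 91.5% and 92.2%. CA4 had a UMI in 66 of 141 GDSS members (46.8%) and 844 of 1122 Yorkshire members (75.2%), and it made up 11.1% and 25.8% of the UMIs of the 3 genes. GDSS members thus entered mostly on GPIHBP1 and BTNL9: all 3 genes were detected in 53 of them (37.6%), against 715 Yorkshire members (63.7%). The summed CA4 level was 244 in GDSS and 835 in Yorkshire, in UMIs of the gene per 1000000 UMIs of the class (CPM). The median sum of the 3 genes was 6 UMIs in GDSS and 10 in Yorkshire.

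At the threshold itself, 16 GDSS and 51 Yorkshire members stood just inside with a sum of 3, and 21 GDSS and 36 Yorkshire barcodes stood just outside with a sum of 2 and met every other condition. FABP4 was at 1808 CPM just outside and 1823 CPM just inside in GDSS, and at 4824 and 6572 CPM in Yorkshire. Members with a sum of 10 or more, 26 in GDSS and 578 in Yorkshire, had 3256 and 9992 CPM. AQP1 followed the same order in both libraries, from 986 through 1000 to 1647 CPM in GDSS and from 1152 through 1170 to 2270 CPM in Yorkshire. Barcodes on the 2 sides of the limit were thus close for AQP1 in both libraries, but not for every gene. In Yorkshire CD36 was at 1632 CPM just outside and 2359 CPM just inside, and the endothelial cadherin CDH5 at 91.8 and 228 CPM. In GDSS CD36 was at 3004 and 2867 CPM, and CDH5 at 164 and 66.7 CPM on 11 and 3 UMIs.

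The members were compared with non-endothelial barcodes on the 3 markers that took no part in the choice: FABP4, AQP1 and the tetraspanin TSPAN13. FABP4 in capillary barcodes stood at 2145 CPM (GDSS) and 9344 CPM (Yorkshire), against 63.0 and 117 CPM in non-endothelial barcodes. AQP1 stood at 1415 and 2068 CPM against 20.1 and 15.6 CPM, and TSPAN13 at 843 and 1023 CPM against 4.64 and 7.22 CPM. The smallest ratio to the non-endothelial level was 34.1, for FABP4 in GDSS. This contrast cannot tell capillary from other endothelial barcodes, since the rule took endothelial barcodes out of the non-endothelial class. Against other endothelial barcodes, 2 of the 3 markers were 2-fold or more higher in both libraries and 1 was not. Of 18 general endothelial genes with enough counts, 18 were 2-fold or more above non-endothelial barcodes in both libraries, among them CDH5, the cadherin of endothelial junctions, and SOX17, an endothelial transcription factor. Beside SOX17 and TSPAN13, the 12 highest ratios were those of FAM167B, CYYR1, S1PR1, SOX18, GHSR, ECSCR, PLVAP, CLEC2B, FLT1 and ADGRL4, from 76.8-fold to 312-fold in the 2 libraries. Over all 10170 genes in that contrast, 584 (5.74%) were that far above and 946 (9.3%) that far below.

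**Figure D1:**
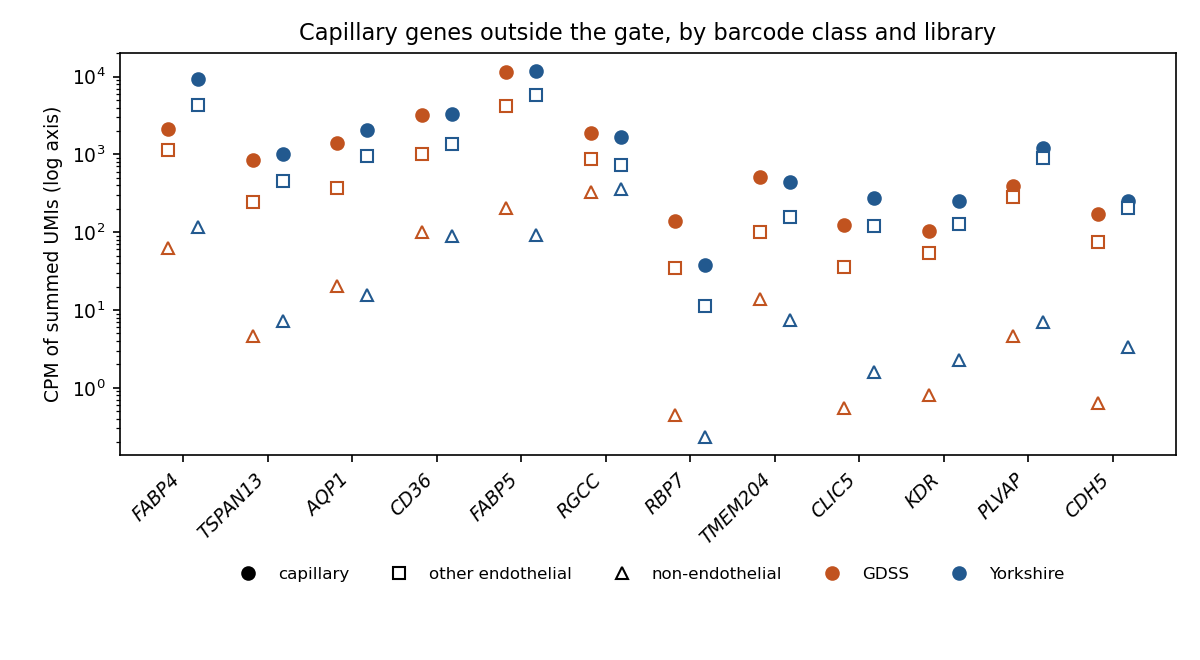
Level of 12 genes that took no part in the choice of barcodes, as CPM of the summed UMIs on a log axis, for capillary (filled circles), other endothelial (open squares) and non-endothelial barcodes (open triangles) of GDSS (orange) and Yorkshire (blue). Every capillary point lies above the other endothelial and non-endothelial point of its library, and FABP4 stands at 2145 CPM (GDSS) and 9344 CPM (Yorkshire).

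The pooled markers of other cell types were low but not absent. The summed level of 41 marker genes of other lineages was 9.67% of the library's level in GDSS capillary barcodes and 10.7% in Yorkshire ones, against 31.9% and 36.5% in other endothelial barcodes. Not every lineage was low in GDSS. Its 9-gene satellite cell list summed to 466 CPM in capillary and 433 CPM in non-endothelial barcodes, and its macrophage list to 658 and 562 CPM. Its stromal progenitor and mural lists, which hold genes of the rule, went the other way, at 1589 against 41084 CPM and 341 against 1094 CPM. In Yorkshire each of these lists was lower in capillary barcodes. At least 1 UMI of 5 satellite cell genes was found in 24 GDSS members (17.0%) and 153 Yorkshire members (13.6%), against 8.24% and 56.6% of non-endothelial barcodes, and 3 or more in 16 (11.3%) and 58 (5.17%). By a first rule, 3 or more UMIs and 20 or more per 10000 of another lineage's markers, 15 GDSS members (10.6%) and 50 Yorkshire members (4.46%) were mixed. A second rule, set after the result of the first, kept the condition of 20 per 10000 only for stromal and mural markers and gave 27 (19.1%) and 102 (9.09%). Both rules were chosen after the data were seen. Values without these barcodes stand beside the results they bear on most.

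Against the other endothelial barcodes, meaning those with at least 2 UMIs of PECAM1 and CLDN5 that did not meet the capillary rule, 39 of 4184 genes (0.932%) were 2-fold or more higher in capillary barcodes in both libraries and 282 (6.74%) lower. These differences follow from the choice of barcodes and are given as a portrait. Of 15 measured genes of fatty acid and lipoprotein handling, 2 were higher in both (CD36 and FABP5), 2 lower, LPL among them, and 11 neither, with median log2 ratios of 0.26 in GDSS and 0.22 in Yorkshire. CD36, the fatty acid translocase, was at 3183 and 3337 CPM in capillary barcodes of GDSS and Yorkshire and at 1016 and 1352 CPM in other endothelial barcodes, with ratios of 3.13 (2.94 to 3.34) and 2.47 (2.40 to 2.54). FABP5 was 2.75-fold and 2.06-fold higher. RBP7, a cellular retinol-binding protein of endothelium, was at 3.99-fold in GDSS and 3.31-fold in Yorkshire. It was first when genes with 100 or more UMIs in both libraries were ranked by the smaller of their 2 ratios, and second, after IGFBP6 (4.77-fold and 3.66-fold), when the mural and stromal limits were put on both sides.

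Other genes of the ranking followed. TMEM204, a junction-associated membrane protein, was 5.12-fold and 2.83-fold higher, the tetraspanin CD82 2.92-fold and 2.82-fold, and CLIC5, a chloride intracellular channel protein, 3.47-fold and 2.28-fold. TINAGL1, a matricellular protein, was 3.83-fold and 2.46-fold higher, and PON2, a paraoxonase, 3.88-fold and 2.30-fold. KITLG, the ligand of the receptor KIT, was 2.20-fold higher in both. The remaining genes of the 12 were CCDC85A, CCDC68, FAM174B and TSPAN13, with ratios between 2.22 and 5.94. Of 12 further capillary genes with enough counts, 4 were 2-fold or more higher in both libraries and 0 lower, with median log2 ratios of 1.37 in GDSS and 0.98 in Yorkshire beside −0.11 and −0.12 over all genes. The 4 were CD36, FABP5, RBP7 and RGCC, a cell cycle regulator, the last at 2.17-fold and 2.29-fold. TIMP4, a metalloproteinase inhibitor, was at 4.14-fold and 3.54-fold but was not counted or ranked, since its 26 capillary and 44 other endothelial UMIs in GDSS were under the limit of 100.

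Genes known from larger vessels and from stroma were among those lower in capillary barcodes. PLAT, tissue plasminogen activator, was at 31.6 and 33.4 CPM in capillary barcodes and 239 and 444 CPM in the others, ratios of 0.133 and 0.0753. EDN1, the vasoconstrictor endothelin 1, was at ratios of 0.297 and 0.255, and NR2F2, a transcription factor of venous identity, at 0.397 and 0.296. With the same mural and stromal limits on both sides, the GDSS ratios were 0.572 (0.245 to 1.19) for EDN1 and 0.600 (0.339 to 1.01) for NR2F2. GJA4, an arterial connexin, was at 0.260 and 0.304, but in GDSS its ratio was 1.69 (0.899 to 3.1) when other endothelial barcodes over the mural and stromal limits were left out, an alternative added after the data were seen. Venous, lymphatic and arterial lists had 3 of 5, 3 of 3 and 3 of 8 measured genes 2-fold or more lower in both libraries and 0 higher. Of 10 cytokine genes, 6 were lower, among them the inflammatory cytokine IL6, which had 0 UMIs in GDSS capillary barcodes and a ratio of 0.0816 in Yorkshire.

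The 10 lowest genes by rank were CCL8, MYOC, FBLN5, ABCA6, TNXB, TFPI, ARG1, SFRP2, IL6 and ASPN. MYOC, FBLN5, TNXB, SFRP2 and ASPN are known from stromal cells, and 7 of 7 measured markers of fibro-adipogenic progenitors were lower too. This list changed with the barcodes used. Without mixed barcodes by the first rule, the 10 lowest were CCL8, C1QA, C1QC, PLEK, TYROBP, C1QB, FCER1G, BCL2A1, CSF1R and FOLR1, of which the C1Q chains, TYROBP, FCER1G and CSF1R are known from macrophages. The mural and stromal limits of the capillary rule remove barcodes with many mural or stromal UMIs from the members but not from the other endothelial barcodes. With the same limits on both sides, 24 genes were higher and 113 lower, FBLN5 turned to 2.0-fold higher in GDSS, and ASPN and SFRP2 turned to higher in Yorkshire. CD36 kept ratios of 2.96 and 2.49, AQP1 3.19 and 1.90, FABP4 1.44 and 2.0, and PLAT 0.115 and 0.0584.

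Endothelial barcodes were also split by vessel type. Arterial-gate barcodes were those with a GJA5 or DLL4 UMI and within the other limits (49 in GDSS and 354 in Yorkshire). TSPAN13, AQP1, CD36, FABP5, RGCC and TMEM204 differed less from them than from venous-lymphatic-gate barcodes. FABP4, KDR and PLVAP did not in both libraries. In GDSS, KDR was at ratios of 0.673 (0.427 to 1.07) to arterial-gate and 1.28 (0.710 to 2.42) to venous-lymphatic-gate barcodes. In Yorkshire, PLVAP was at 1.11 and 0.963. TSPAN13 was 1.25-fold (1.03 to 1.51) and 1.25-fold (1.18 to 1.32) above arterial-gate barcodes, and 3.45-fold and 3.89-fold above venous-lymphatic-gate barcodes (25 and 144). CD36 was 1.39-fold and 1.57-fold above the arterial-gate group and 2.91-fold and 3.91-fold above the venous-lymphatic-gate group. FABP5 and RGCC followed the same order in both libraries, at 1.28-fold and 1.31-fold, and 1.43-fold and 1.51-fold, against the arterial-gate group. TMEM204 was 1.82-fold (1.38 to 2.43) and 1.52-fold (1.39 to 1.67) above it.

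PLAT was lower in capillary barcodes than in both neighbours. It was at 313 CPM in arterial-gate and 753 CPM in venous-lymphatic-gate barcodes of GDSS, and at 225 and 1137 CPM in those of Yorkshire. In 1 GDSS arterial-gate barcode lay 42 of the 75 PLAT UMIs. EDN1 was at 20.3 CPM in capillary and 91.9 CPM in arterial-gate barcodes of GDSS, and at 38.1 and 222 CPM in Yorkshire. NR2F2 was at 40.7 CPM in the capillary barcodes of both libraries and at 219 and 194 CPM in venous-lymphatic-gate barcodes, while its ratio to the arterial-gate group was 0.696 (0.327 to 1.51) and 1.01 (0.775 to 1.33). PLVAP, the protein of endothelial diaphragms, was higher in venous-lymphatic-gate than in capillary barcodes of GDSS (1256 against 398 CPM) and near equal in Yorkshire (1251 against 1204 CPM).

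FABP4 did not keep this order in the 2 libraries. In Yorkshire it was 1.43-fold (1.40 to 1.46) above arterial-gate and 2.34-fold (2.28 to 2.41) above venous-lymphatic-gate barcodes. In GDSS its ratio to arterial-gate barcodes was 0.581 (0.530 to 0.638), and 532 of the 884 arterial-gate UMIs came from 1 barcode. Its ratio to venous-lymphatic-gate barcodes was 0.988 (0.880 to 1.11).

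The breed comparison within capillary barcodes asked which genes differed between the GDSS and Yorkshire sums, a contrast the rule did not use. Of 4532 genes with 100 or more UMIs, 105 (2.32%) were 2-fold or more higher in GDSS and 311 (6.86%) in Yorkshire, and the log2 ratio of GDSS over Yorkshire had a median of −0.07. In either direction this is 9.18%. The 100 UMIs were counted over both capillary sums together, 442339 UMIs in GDSS and 3858472 in Yorkshire. Genes high in Yorkshire thus passed the limit more easily than genes high in GDSS. The 2 shares lean towards Yorkshire for this reason too, and the list counts set beside them passed the same limit. With TMM factors or median-of-ratios factors the median was −0.17, and the counts were 77 and 399, or 77 and 396. FABP4, PLVAP, CAV1 and most interferon response genes were among those higher in Yorkshire, while CD36, FABP5 and TSPAN13 had Yorkshire over GDSS ratios of 1.05, 1.03 and 1.21.

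**Figure D2:**
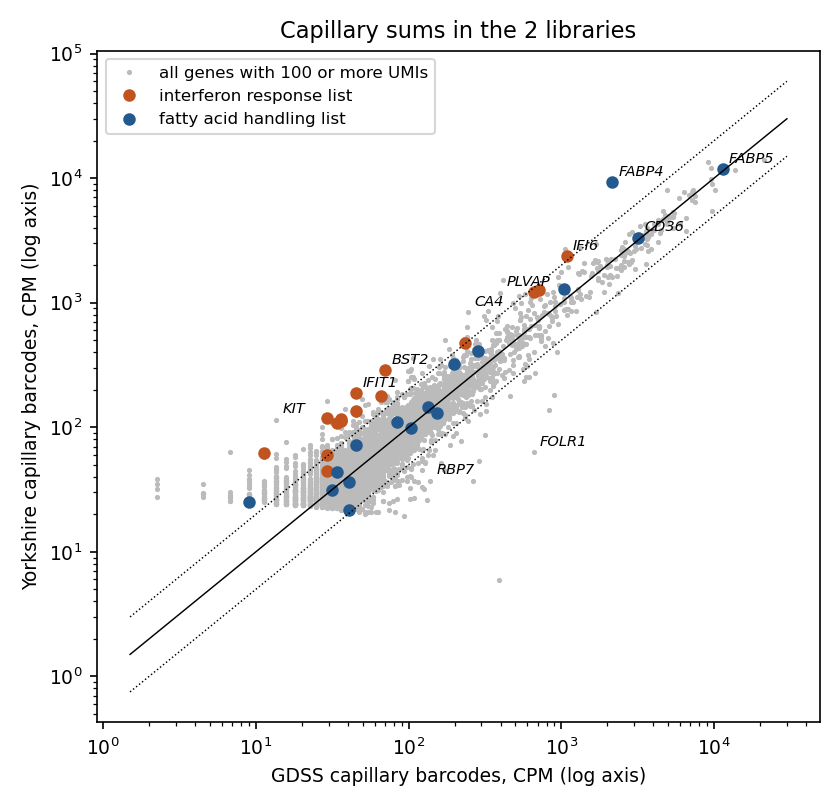
CPM of the capillary sums in GDSS (horizontal) and Yorkshire (vertical), both on log axes, with 1 point per gene with 100 or more UMIs, the interferon response list in orange and the fatty acid handling list in blue. The solid line marks equal values and the dotted lines 2-fold: FABP4 (2145 and 9344 CPM) lies above the upper line, FABP5 and CD36 lie close to the solid line, and FOLR1 and RBP7 lie below the lower one.

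FABP4, the fatty acid carrier, differed most among the lipid genes. Its capillary UMIs were 949 (GDSS) and 36053 (Yorkshire), and the Yorkshire over GDSS ratio of the CPM was 4.36 (4.08 to 4.65). A UMI was found in 97 of 141 GDSS members (68.8%, 60.5 to 76.3%) and in 1101 of 1122 Yorkshire members (98.1%, 97.2 to 98.8%). After thinning each barcode to 1500 UMIs, with 38 and 121 shallower barcodes left out, the shares were 63.1% (53.0 to 72.4%) and 97.8% (96.7 to 98.6%). The libraries thus also differed at equal depth. In non-endothelial barcodes, a mixed class with medians of 2859 and 3000 UMIs, the share was 3.50% and 14.0%, and 2.12% and 8.52% after thinning.

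The level varied widely within GDSS. Per barcode, the quartiles of FABP4 were 0, 11.8 and 40.9 UMIs per 10000 in GDSS, with a highest value of 162, and 48.5, 84.8 and 137 in Yorkshire, with a highest value of 534. The upper quartile in GDSS thus lay below the lower quartile in Yorkshire. The 10 richest GDSS barcodes held 35.8% of the gene's UMIs in that library. The ratio was 3.8 in other endothelial and 1.86 in non-endothelial barcodes, so FABP4 was higher in Yorkshire in every class, and over all settings tried its log2 ratio in capillary barcodes lay between −2.23 and −1.95.

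**Figure D3:**
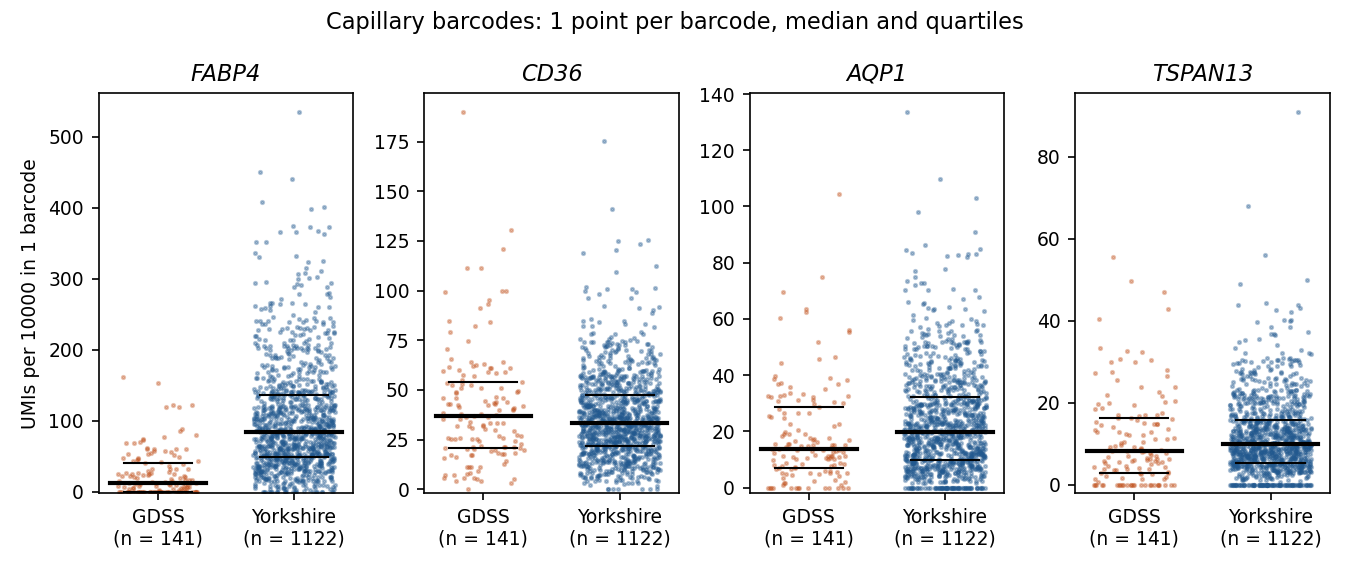
UMIs per 10000 in each capillary barcode for FABP4, CD36, AQP1 and TSPAN13, 1 point per barcode, for 141 GDSS (orange) and 1122 Yorkshire (blue) barcodes, with the median (thick line) and quartiles (thin lines). The FABP4 medians are 11.8 and 84.8, while the CD36 medians are 36.9 and 33.3.

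The rest of the fatty acid and lipoprotein list did not follow FABP4. Of its 15 measured genes, 2 were 2-fold or more higher in Yorkshire (FABP4 and TCF15) and 0 in GDSS. Over all genes these shares were 6.86% and 2.32%. The median log2 ratio was −0.13. CD36 had a Yorkshire over GDSS ratio of 1.05 (0.992 to 1.11) and a UMI in 140 and 1115 members. FABP5 was at 11378 and 11758 CPM, a ratio of 1.03 (1.00 to 1.06). Both intervals leave out a 2-fold difference, unlike that of FABP4, and both directions turned in at least 1 setting, with log2 GDSS over Yorkshire ratios of −0.21 to 0.19 for CD36 and −0.16 to 0.13 for FABP5. GPIHBP1, part of the rule, was at 1047 and 1290 CPM.

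Other steps of lipid handling showed smaller or less certain differences. MGLL, which cleaves monoglycerides, was at 199 and 322 CPM, 1.62-fold (1.30 to 2.03) higher in Yorkshire, and ANGPTL4, an inhibitor of lipoprotein lipase, at 285 and 411 CPM, 1.44-fold (1.20 to 1.74) higher. The nuclear receptor PPARG was at 45.2 and 71.5 CPM, a ratio of 1.58 (1.0 to 2.63) whose direction turned after thinning (log2 GDSS over Yorkshire 0.15). The factor TCF15 had 4 GDSS UMIs and 97 Yorkshire UMIs, a ratio of 2.78 (1.05 to 10.4). After thinning it had 0 and 49 UMIs, at least 1.68-fold higher in Yorkshire with the 0 set to 3. MEOX2, the partner factor of TCF15 in muscle capillaries, was at 154 and 130 CPM. LPL itself had 18 and 53 UMIs and was at ratios of 0.167 and 0.131 to other endothelial barcodes.

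RBP7 went the other way. It had 61 UMIs in 35 GDSS members (24.8%) and 144 UMIs in 123 Yorkshire members (11%), at 138 and 37.3 CPM, a GDSS over Yorkshire ratio of 3.70 (2.69 to 5.02). In arterial-gate barcodes the levels were 138 and 25.1 CPM. The gene was thus higher in GDSS in these groups too, and no single barcode carried it, since the 2 richest held 19.7% of the GDSS UMIs. IDI1, an enzyme of the isoprenoid and cholesterol pathway, was at 131 and 26.2 CPM, 5.01-fold (3.56 to 6.99) higher in GDSS, with 58 UMIs spread over 38 GDSS members. Its Yorkshire over GDSS ratio was 0.655 in other endothelial and 0.808 in non-endothelial barcodes.

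PLVAP and CAV1 differed most among the diaphragm and caveolar genes. Of 8 measured genes, 2 were 2-fold or more higher in Yorkshire and 0 in GDSS, beside 6.86% and 2.32% of all genes. The median log2 ratio was −0.59. PLVAP was at 398 and 1204 CPM, a ratio of 3.03 (2.60 to 3.54), and had a UMI in 64 GDSS members (45.4%) and 936 Yorkshire members (83.4%). After thinning the shares were 35% and 68.9%, against 0.354% and 0.790% in non-endothelial barcodes. CAV1, the caveolin of endothelium, was at 49.7 and 168 CPM, a ratio of 3.38 (2.21 to 5.43). The partner proteins of the same coat, CAV2, CAVIN1 and CAVIN3, had ratios of 1.11, 1.05 and 1.23. PLVAP and CAV1 also differed in other endothelial barcodes as a whole, by 3.12-fold and 4.61-fold, though the make-up of that class differed between the libraries. By group, PLVAP was near equal in venous-lymphatic-gate barcodes (1256 and 1251 CPM), and stood at 535 and 1085 CPM in arterial-gate barcodes, where 70 of the 128 GDSS UMIs came from 1 barcode. CAV1 was at 41.8 and 137 CPM in arterial-gate barcodes, and had 0 GDSS UMIs against 67 Yorkshire UMIs in venous-lymphatic-gate ones.

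Among transporters, AQP1 was at 1415 and 2068 CPM, 1.46-fold (1.35 to 1.59) higher in Yorkshire, with a UMI in 90.1% and 93.9% of members. The amino acid transporter SLC38A2 was at 321 and 727 CPM, 2.27-fold (1.91 to 2.7) higher. Of 9 measured transport genes 1 was past 2-fold in Yorkshire and 0 in GDSS, not counting CA4, which the rule used. Over all genes these shares were 6.86% and 2.32%. CYYR1, a membrane protein, had a UMI in 68.1% of GDSS and 90.1% of Yorkshire members and was 2.14-fold higher in Yorkshire, and CLIC5 was 2.22-fold (1.69 to 2.98) higher.

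Junction genes were split. TJP1, a scaffold of tight junctions, was at 183 and 423 CPM, 2.31-fold (1.85 to 2.93) higher in Yorkshire, though 2-fold was not reached when each barcode had equal weight (log2 ratio −0.74) or without mixed barcodes by the second rule (−0.81). CLDN5, the main claudin of endothelium and part of the rule, was at 1295 and 1288 CPM, a ratio of 0.994 (0.912 to 1.09). ESAM, a junctional adhesion protein, was at 563 and 533 CPM, and CDH5 at 170 and 250 CPM. Of 10 measured junction genes 1 was 2-fold or more higher in Yorkshire and 0 in GDSS, beside 6.86% and 2.32% of all genes.

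Counts of growth factor receptors and transcription factors stand beside 6.86% of all genes past 2-fold in Yorkshire and 2.32% in GDSS. KDR, the main VEGF receptor, was at 104 and 253 CPM, 2.43-fold (1.81 to 3.35) higher in Yorkshire, with a log2 ratio of −0.98 under the second rule for mixed barcodes. FLT1, another VEGF receptor, was at 163 and 197 CPM. NRP1, a VEGF co-receptor, was at 283 and 427 CPM. Of 9 measured VEGF and angiopoietin genes 1 was past 2-fold, and of 6 measured Notch genes 0 were. HHEX, a homeobox factor, was at 27.1 and 80.3 CPM, 2.96-fold (1.67 to 5.79) higher in Yorkshire, and at a log2 ratio of −0.97 after thinning. Of 21 measured endothelial transcription factors, 2 were past 2-fold in Yorkshire, HHEX and TCF15.

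KIT, the receptor of stem cell factor, was detected in few GDSS members. It had 6 UMIs in 5 GDSS members (3.55%, 1.16 to 8.08%) and 444 UMIs in 309 Yorkshire members (27.5%, 24.9 to 30.3%), at 13.6 and 115 CPM, a ratio of 8.48 (3.87 to 23.2). After thinning the shares were 0.971% and 15.5%. The ratio was 7.9 in other endothelial and 11 in non-endothelial barcodes, so KIT was higher in Yorkshire in every class. KIT also marks mast cells, and another of their markers, MS4A2, had 8 capillary UMIs in GDSS and 0 in Yorkshire. The part of mast cell RNA was not tested. KITLG, the ligand, was at 111 CPM (GDSS) and 187 CPM (Yorkshire).

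Of 15 measured vasoactive genes, 3 were past 2-fold in Yorkshire and 0 in GDSS, beside 6.86% and 2.32% of all genes. NOS3, endothelial nitric oxide synthase, was at 49.7 and 101 CPM, 2.02-fold (1.32 to 3.26) higher in Yorkshire, but its log2 ratio was −0.33 with equal barcode weights, and −0.93 and −0.65 without mixed barcodes by the first and second rule. RAMP3, an accessory protein of the adrenomedullin receptor, had 103 Yorkshire UMIs against 0, at least 3.94-fold higher with the GDSS count set to 3 over all its members. After thinning it had 40 against 0, at least 1.37-fold higher by the same bound. The flow-responsive factor KLF2 was at 2460 and 2399 CPM.

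Chemokines differed in both directions. CXCL2, which attracts neutrophils, was at 1056 and 2710 CPM, 2.57-fold (2.34 to 2.82) higher in Yorkshire, whereas in other endothelial barcodes it was 7044 and 2856 CPM, a ratio of 0.405. CXCL12, a homing chemokine, was at 109 and 242 CPM, 2.23-fold (1.67 to 3.05) higher. CCL2, which attracts monocytes, was 4.91-fold higher in GDSS, but 296 of its 397 GDSS UMIs came from 1 barcode and without mixed barcodes it turned to lower in GDSS (log2 ratios of −0.40 and −0.14 by the first and second rule). CCL14 was 2.6-fold higher in GDSS but 1.13-fold without mixed barcodes by the first rule.

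The interferon response list had the largest count past 2-fold of the 40 lists. Of its 15 measured genes, 12 were 2-fold or more higher in Yorkshire and 0 in GDSS, beside 6.86% and 2.32% of all genes. The median log2 ratio was −1.58. The summed level of the list was 3124 and 6737 CPM in capillary barcodes of GDSS and Yorkshire, 2636 and 5454 CPM in other endothelial barcodes, and 753 and 663 CPM in non-endothelial barcodes. The sum was thus higher in Yorkshire in both kinds of endothelial barcode and lower there outside them. Per barcode, the capillary median was 25 and 58.1 UMIs per 10000.

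Single genes followed. IFIT1, an inhibitor of viral translation, was at 45.2 and 187 CPM, 4.13-fold (2.66 to 6.81) higher in Yorkshire, and its ratio was 2.84 in other endothelial and 0.929 in non-endothelial barcodes. BST2, the tetherin of virus particles, was at 70.1 and 288 CPM, 4.11-fold (2.88 to 6.08) higher, with ratios of 3.07 and 0.806 in the other classes. The ratios of the whole other endothelial class did not hold in each of its groups. BST2 was at 109 and 302 CPM in arterial-gate barcodes of GDSS and Yorkshire, but at 86.5 and 95.6 CPM in venous-lymphatic-gate ones, and at 78.0 and 67.8 CPM in barcodes with a capillary sum under 3 that met the other limits (101 and 197). IFIT1 was at 192 and 163 CPM in arterial-gate, 20.3 and 164 CPM in venous-lymphatic-gate and 18.8 and 91.1 CPM in the low-sum barcodes. Of its 46 GDSS arterial-gate UMIs, 38 came from 1 barcode, so the GDSS level in that group rests on it. In capillary barcodes, BST2 had a UMI in 20 GDSS members (14.2%) and 567 Yorkshire members (50.5%), and in 10.7% and 30.8% after thinning. IFI6, an interferon-inducible membrane protein, was at 1085 and 2352 CPM, 2.17-fold (1.98 to 2.38) higher, with a UMI in 63.8% and 92.2% of members. MX1 and MX2, both dynamin-like antiviral proteins, were 3.19-fold and 3.21-fold higher, and RSAD2, viperin, 5.50-fold (2.33 to 17.1) on 5 GDSS UMIs.

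Within the list, IFITM3 (1.79-fold), ISG15 (1.86-fold) and IFI44 (1.51-fold) were under 2-fold, and IFI44 turned to slightly higher in GDSS with equal barcode weights or after thinning (log2 ratios of 0.17 and 0.02). Over the settings tried, 9 to 12 of the 15 genes stayed past 2-fold in Yorkshire and 0 were past 2-fold in GDSS. The lowest count was without mixed barcodes by the second rule, where IFI6, IRF7 and IRF1 fell short. Immune cell markers were also found in capillary barcodes. The lymphocyte list summed to 111 CPM in GDSS and 194 CPM in Yorkshire, against 97.4 and 238 CPM in non-endothelial barcodes. The macrophage list summed to 658 and 146 CPM, against 562 and 350 CPM there. In a smaller count of macrophage genes than this list, 213 of 265 GDSS capillary UMIs were in 1 barcode. In GDSS both lists were thus not below the non-endothelial level. The part of immune cell RNA in the interferon result was not tested.

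**Figure D4:**
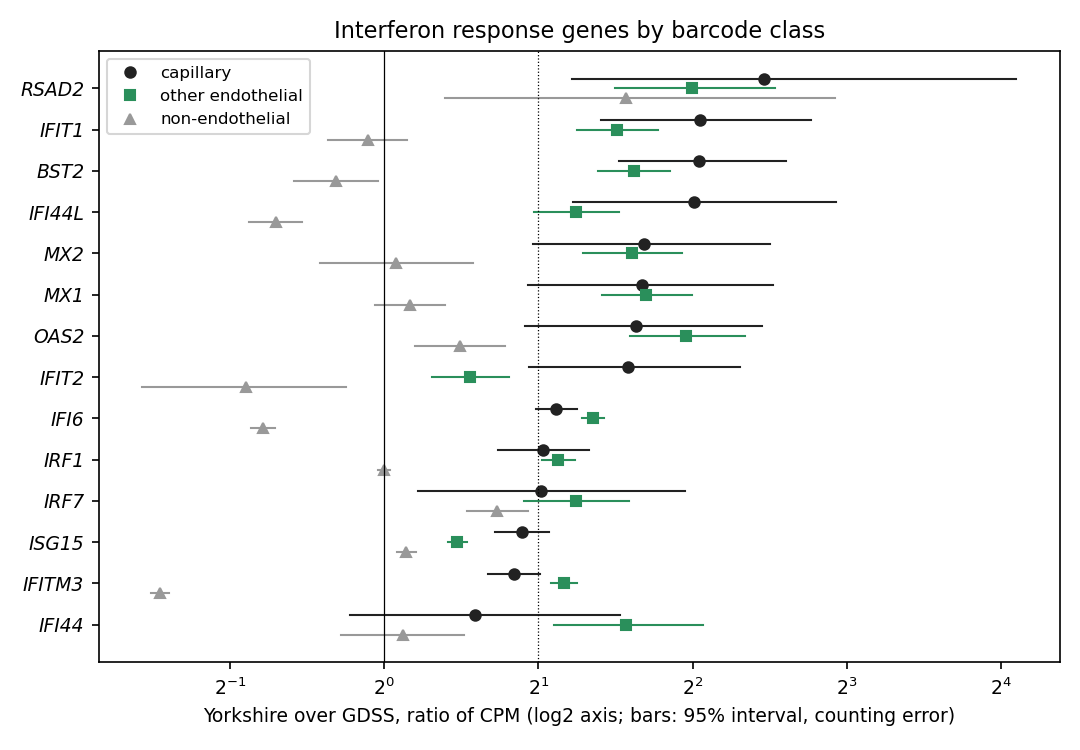
Yorkshire over GDSS ratio of CPM for 14 of the 15 measured interferon response genes, on a log2 axis, in capillary (black circles), other endothelial (green squares) and non-endothelial barcodes (grey triangles), with 95% intervals for counting error and a dotted line at 2-fold. Capillary ratios run from 1.51 (IFI44) to 5.50 (RSAD2), and the non-endothelial ratio of RSAD2 (2.97) is the 1 drawn for that class that is 2-fold or more higher in Yorkshire.

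Antigen presentation genes stood above the non-endothelial level in both libraries. Of 10 measured genes 10 were 2-fold or more above non-endothelial barcodes in both, beside 5.74% of all genes. Against other endothelial barcodes 0 of 8 measured genes were, with median log2 ratios of 0.78 in GDSS and 0.45 in Yorkshire. The trait was thus not particular to capillary barcodes within the endothelium. CD74, the invariant chain of class II molecules, was at 5909 and 6942 CPM. It had a UMI in all 141 GDSS and all 1122 Yorkshire members, but also in 98.3% and 98.9% of non-endothelial barcodes, so detection did not separate the classes. B2M, the light chain of class I molecules, was at 9108 and 13529 CPM, 1.49-fold (1.44 to 1.53) higher in Yorkshire. PSMB8, an immunoproteasome subunit, was at 102 and 285 CPM, 2.80-fold (2.08 to 3.86) higher, and TAP1, a peptide transporter, 2.02-fold (1.37 to 3.1). These were the 2 of 9 measured genes past 2-fold, beside 6.86% of all genes in Yorkshire. TAP1 was under 2-fold with equal barcode weights (log2 ratio −0.72) and without mixed barcodes by both rules (−0.95 and −0.87).

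Several of the highest GDSS over Yorkshire ratios rested on single barcodes. FOLR1, a folate receptor, led the ranking at 10.4-fold (8.78 to 12.4), and 254 of its 292 GDSS UMIs lay in 1 barcode. C1QB, a complement protein of macrophages, had 111 of 127 UMIs in 1 barcode, and C1QC 44 of 48. HMOX1, a haem-degrading enzyme, had 58 of 75. Without mixed barcodes by the first rule FOLR1 was at 1.07-fold and HMOX1 at 1.02-fold, and HMOX1 turned to slightly lower in GDSS (log2 ratio −0.10) with a capillary sum of 5 or more. The feature ENSSSCG00000033457, which has no symbol in the tables used and was singled out after its values were seen, was at 391 and 5.96 CPM, with 158 of its 173 GDSS UMIs in 1 barcode.

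Other genes of that ranking were spread over more barcodes. MGP, a calcification inhibitor of the matrix, was 6.06-fold higher in GDSS with UMIs in 64 barcodes, 181 of 366 in 1 of them, and 3.13-fold higher without mixed barcodes by the first rule. MYF5, a myogenic factor of satellite cells, was 3.66-fold higher with 141 UMIs in 15 barcodes, and it turned to lower in GDSS (log2 ratio −2.23) by the second rule, which removes barcodes on satellite markers by its construction. PGAM2, a muscle phosphoglycerate mutase, was 3.93-fold higher, SRGN, a proteoglycan of blood cells, 3.94-fold, and S100A6, a calcium-binding protein, 3.65-fold. By the first rule S100A6 was at 1.55-fold. SRGN was then at 9.33-fold, but it no longer met the conditions of the ranking. After thinning SRGN had 17 GDSS and 23 Yorkshire UMIs, so its ratio is uncertain. Satellite cell genes summed to 466 CPM in GDSS and 195 CPM in Yorkshire capillary barcodes, mural genes to 341 and 158 CPM, and stromal progenitor genes to 1589 and 828 CPM. Their part in these ratios was not tested.

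**Figure D5:**
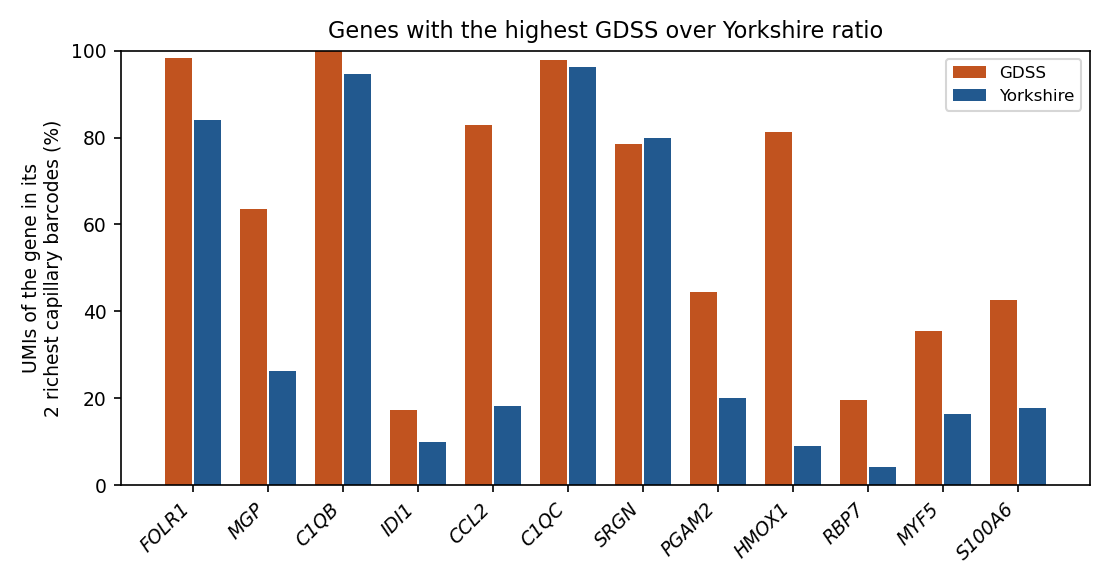
Percentage of a gene's capillary UMIs that lie in its 2 richest barcodes, for the 12 genes with the highest GDSS over Yorkshire ratio, in GDSS (orange) and Yorkshire (blue), with bars starting at 0. In GDSS the bars reach 98.3% for FOLR1 and 100% for C1QB, against 17.2% for IDI1 and 19.7% for RBP7.

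At the other end, the largest Yorkshire over GDSS ratios rested on few GDSS counts. The UMI limit for genes was counted over both capillary sums together, so Yorkshire counts alone could carry a gene past it. A gene found mainly in GDSS passed it less easily, because the GDSS sum was smaller. The sizes of the ratios at both ends of the ranking are therefore not directly comparable. SPP1, osteopontin, was 15.6-fold higher (2.75 to 620), PTGES, prostaglandin E synthase, 14.1-fold (2.48 to 561) and SPHK1, sphingosine kinase, 12.2-fold (2.13 to 484), each with 1 GDSS UMI. SPP1 had 56 of its 136 Yorkshire UMIs in 1 barcode. After thinning SPP1, PTGES, SPHK1 and SART3 had 0 GDSS UMIs against 18, 55, 37 and 49 in Yorkshire. With the 0 set to 3, PTGES, SPHK1 and SART3 were at least 1.89-fold, 1.27-fold and 1.68-fold higher, and SPP1 was too rare to give a direction. GBP1, an interferon-induced GTPase outside the list, was 9.25-fold higher (3.13 to 45.2) with 3 GDSS UMIs, and 7.30-fold higher in other endothelial barcodes. PARP14 was 5.02-fold, ATP1B1, a sodium pump subunit, 5.07-fold and CYP1A1, a target of the aryl hydrocarbon receptor, 4.61-fold higher. The remaining genes of the 12 were RAPGEF5, SART3, HIST2H2AC and those named above, with ratios of 4.85 to 8.48.

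Matrix and signalling genes of other lists are given by their values. CAVIN2, a coat protein of caveolae, was at 805 and 1167 CPM, 1.45-fold (1.3 to 1.62) higher in Yorkshire. ID2, an inhibitor of transcription induced by BMP signals, was at 479 and 1003 CPM, a ratio of 2.09, with a log2 ratio of −0.88 without mixed barcodes by the second rule. NID2, a basement membrane protein, was at 18.1 and 57.3 CPM, 3.17-fold (1.58 to 7.43) higher. TIMP4 was 2.16-fold (1.45 to 3.33) higher in Yorkshire but under 2-fold without mixed barcodes (log2 ratios of −0.93 and −0.80).

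Counts of lists that mark the state of the cells stand beside 2.32% of all genes past 2-fold in GDSS and 6.86% in Yorkshire. Of 17 measured immediate early genes, 2 were past 2-fold in GDSS (MYC and NR4A2) and 0 in Yorkshire. Both were under it with TMM factors, after thinning and without mixed barcodes by either rule. Of 14 measured heat shock genes, 1 was past 2-fold in each direction. FOS, an early gene of cell stress and dissociation, was at 7223 and 6722 CPM. Of 15 glycolysis and hypoxia genes 0 were past 2-fold, and of 12 mitochondrially encoded genes 0 were, with a median log2 ratio of 0.60. The cell cycle list summed to 312 CPM in GDSS and 271 CPM in Yorkshire capillary barcodes, against 305 and 396 CPM in non-endothelial barcodes. A UMI of this list alone does not mark a dividing cell.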

How the data were processed

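Single-cell libraries of 1 GDSS and 1 Yorkshire sample were used as deposited: raw UMI counts per gene and barcode in 10x matrices, for which the submitters' processing notes name Cell Ranger as the authors' tool. The matrix header names software version 3.1.0 and the notes name R 3.5.2. Which genome build was used is not given in the sources used here. Totals were 42093851 UMIs in 12286 barcodes (GDSS) and 54300953 UMIs in 14695 barcodes (Yorkshire). Of 21301 features, 14846 had a symbol in the files, 687 took one from a table of gene names and 5768 had none.

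Barcodes with 500 or more genes were classed by the rule in the text, and raw UMIs were summed per class and library. CPM carry exact Poisson intervals, ratios exact conditional binomial intervals and shares exact Clopper-Pearson intervals, all at 95%. A count of 0 was set to 3 over the summed barcodes and the ratio given as a bound. Genes needed 100 or more UMIs, and 2-fold or more was the limit of size. For shares, barcodes were also thinned to 1500 UMIs. No test, p-value or standard error was made, since each breed has 1 library. The named genes are the rule's genes and markers, the 12 highest and 10 lowest against other endothelial barcodes, the 12 highest against non-endothelial barcodes, the 12 highest and 12 lowest between breeds, and up to 4 genes of each list with the largest ratio besides others by role. Ribosomal, mitochondrial, haemoglobin, sex-linked, SLA and rule genes were left out of rankings. Members and lists were chosen with earlier results of these data known. Alternatives changed the rule, depth, scaling, gene filter and comparison barcodes. No doublets were removed: Scrublet's automatic threshold marked 1 GDSS and 0 Yorkshire barcodes and so did not work, and a score of 0.3 or more was found in 0 GDSS and 47 Yorkshire members. On simulated counts of 4530 genes for the breed comparison, 49% of 2-fold and 100% of 4-fold changes passed 2-fold, as did 1.66% of unchanged genes. These were Poisson counts without variation between barcodes or libraries. The shares therefore cover counting error alone and are not error rates of the real comparison. Tools were Python 3.11.15, numpy 2.4.6, scipy 1.17.1, pandas 2.3.3, scanpy 1.11.5, matplotlib 3.10.9, R 4.3.3 and edgeR 4.0.16 (TMM factors only). Results of some genes are not reported here; the list counts still hold them.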

Additional observations from a re-analysis of the deposited data

Results flagged for a closer look

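Barcodes with fewer than 500 genes were outside every comparison. Of these, 11 of 753 in GDSS (1.46%, 0.731 to 2.60%) and 14 of 377 in Yorkshire (3.71%, 2.04 to 6.15%) met all other conditions of the capillary rule. FABP4 in their sums was at 1696 and 9697 CPM, AQP1 at 2088 and 3394 CPM and CDH5 at 261 and 582 CPM.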

How the results depend on the processing

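Over 16 settings, 5223 values of single genes and lists were recomputed: 783 moved by 0.25 or more on the log2 scale and 280 had the other sign, most of them of values under 2-fold. Of 1774 values past 2-fold, 12 had the other sign, 1762 kept their direction and 1639 stayed past 2-fold. The capillary share was 0.841% (GDSS) and 6.93% (Yorkshire) with a capillary sum of 5 or more, 0.968% in GDSS with 800 or more genes, and 0.991% and 7.18% without mixed barcodes by the second rule. Thinning to 1500 UMIs left 9 genes higher and 66 lower than other endothelial barcodes, 626 lower than non-endothelial ones, and 28 higher in GDSS and 178 in Yorkshire. With genes of 20 or more UMIs these were 84 and 640, 942 higher than non-endothelial, and 607 and 921. With 500 or more UMIs they were 12 and 71, 266 higher and 625 lower than non-endothelial, and 14 and 66. These filters change how many genes enter. The same mural and stromal limits on both sides gave 24 and 113. Thinned to 1000 UMIs, FABP4 was found in 96.0% of Yorkshire members.

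The values past 2-fold that had the other sign were as follows, in log2. With a capillary sum of 5 or more, GDSS over Yorkshire was −0.10 for HMOX1. SPP1 was 0.70 after thinning, where 0 GDSS UMIs were set to 3, so this value is a bound that gives no direction. Without mixed barcodes by the first rule CCL2 was −0.40 and HBB 1.5. By the second rule ACTA2 was −0.030, CCL2 −0.14, HBB 1.07 and MYF5 −2.23. The rules use HBB, ACTA2 and MYF5 themselves, so for these the turn follows from how they are built; for CCL2 and HMOX1 the cause was not tested. Both rules were chosen after the data were seen, the second after the result of the first. Against other endothelial barcodes within the mural and stromal limits, ASPN was 0.043 and SFRP2 1.39 in Yorkshire, and FBLN5 1.00 and GJA4 0.76 in GDSS. No paired analysis was possible because each breed has 1 library. Precision is limited by the 442339 UMIs of the GDSS capillary sum.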
